A study of Solanum lycopersicum with 84 samples.

Results

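The genes described here are 7 tomato genes whose products loosen or take apart the cell wall: a pectin lyase (Solyc04g015530), the pectate lyase PL (Solyc03g111690), the polygalacturonase PG2a (Solyc10g080210), the beta-galactosidase TBG4 (Solyc12g008840), the endoglucanase Cel2 (Solyc09g010210), the xyloglucan-modifying enzyme XTH5 (Solyc01g081060) and the expansin EXP1 (Solyc06g051800). They were picked by locus, as the rows of the count table whose gene identifier starts with 1 of these 7 names, and make up 7 of the 33976 genes counted. The study itself drew attention to the pectin lyase from the same libraries, so its seed coat pattern is not independent evidence. RNA was sequenced from seeds of the cultivar Moneymaker, with no mutant, transgene or treatment in any group, in 28 groups of tissue and age with 3 libraries each, and each library came from 10 to 20 seeds of greenhouse fruits. Whole seeds were taken at 15, 21 and 28 days after flowering (DAF), and from 35 DAF on the seeds were dissected by hand. The seed coat was sampled at 35, 42 and 49 DAF only. The embryo and the endosperm were sampled at 35, 42 and 49 DAF and at the fruit stages mature green (MG, 56 DAF), breaker (B, 63 DAF), pale orange (PO, 67 DAF), orange (O, 70 DAF), dark orange (DO, 72 DAF), red (R, 76 DAF) and red after 7 and 14 further days (R7, 83 DAF and R14, 90 DAF). The 3 replicates of a group are biological replicates by the study's methods.

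Plant cell walls are built from cellulose fibres tethered by xyloglucan and embedded in pectin, and a wall softens when these links are cut or loosened. Lyases and polygalacturonases cut the galacturonan backbone of pectin, beta-galactosidases trim its galactan side chains, endoglucanases cut glucan chains, xyloglucan endotransglucosylases cut and rejoin xyloglucan, and expansins loosen the contacts between polymers without cutting them. In tomato these genes are best known from the softening of ripening fruit flesh, where PL, PG2a, TBG4, Cel2, XTH5 and EXP1 have all been studied.

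Library totals lay between 16908779 and 22734330 estimated counts. Levels are given as CPM, a count scaled to the total of its library, which compare libraries for 1 gene but not genes with each other. A gene with 3 or fewer counts in a library, which is 0.132 to 0.177 CPM here, is treated as at the floor. The floor covers counting error only, whereas the SE of a fitted change also takes in the spread between libraries. Statements that libraries do not overlap describe the named genes alone, since the share of all genes without overlap was not worked out. In bulk tissue fewer cells of a type and less RNA per cell cannot be told apart. The seed coat label was borne out by the maternal genes MBP3 and TAGL1, at 214 to 441 CPM and 173 to 458 CPM in the 9 seed coat libraries, whereas AGL11 had no counts in all 84 libraries. The 4 maternal markers summed to 2.28 to 8.50 CPM in endosperm and 0.775 to 1.51 CPM in embryo at 49 DAF, and the 2 embryo markers ABI4-1 and ABI4-2 summed to at most 3.03 CPM in seed coat against 51.7 to 70.3 CPM in the embryo at 49 DAF.

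**Figure D1:**
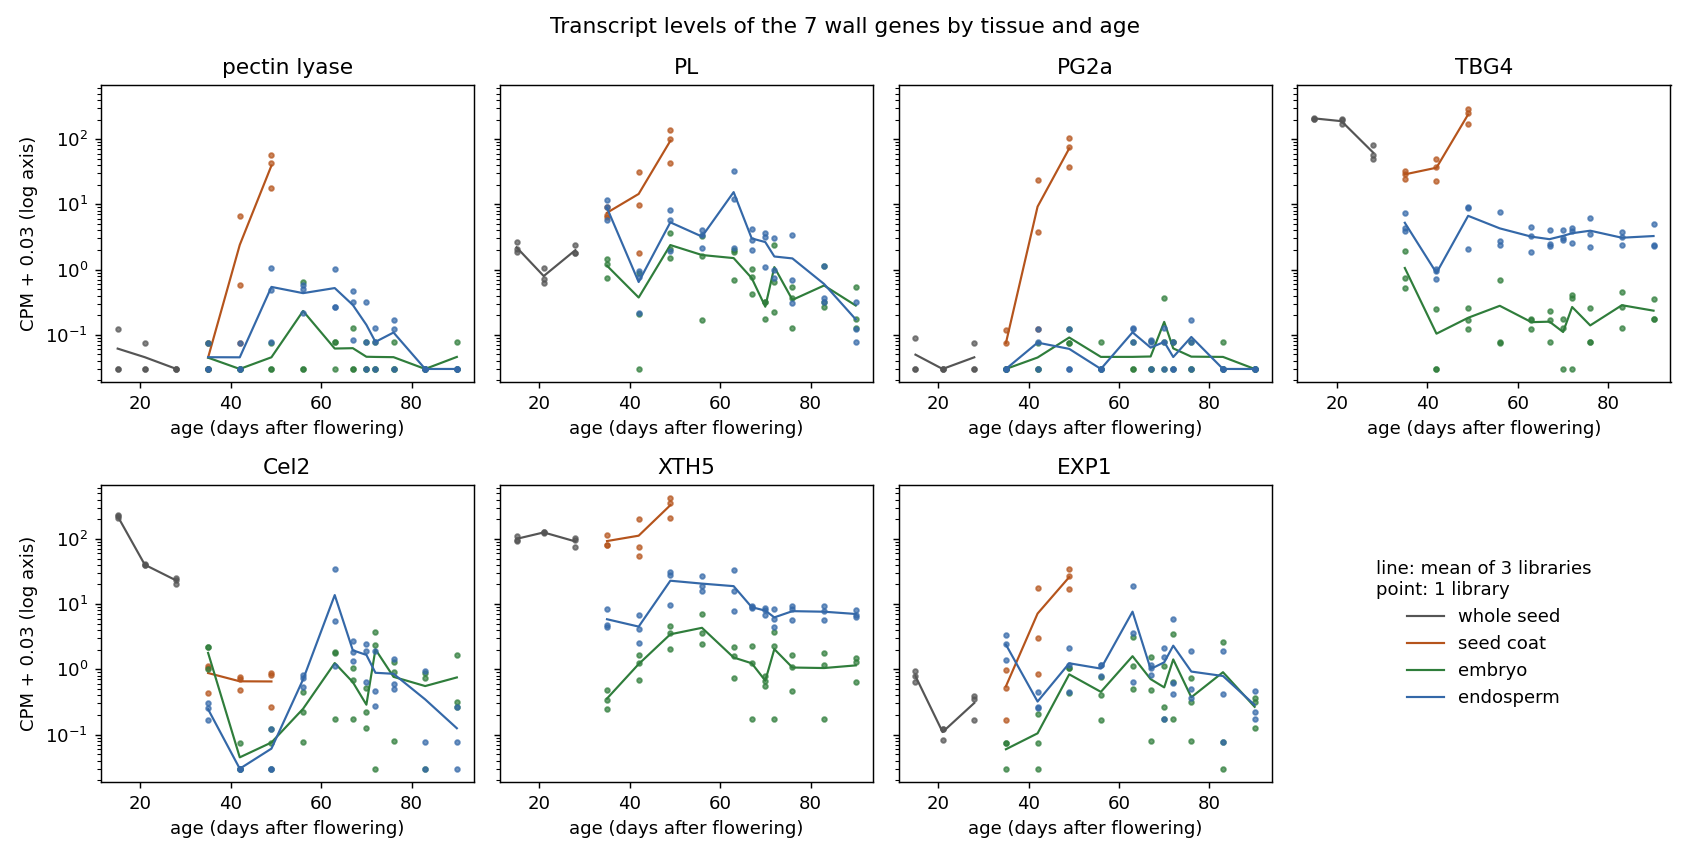
Level of each of the 7 genes (CPM on a log axis, with 0.03 CPM added so that zeros can be drawn) against seed age in days after flowering, with a point for each library and a line through the group means of each tissue. In 6 of the 7 panels the highest group mean is the seed coat at 49 DAF, and for Cel2 it is the whole seed at 15 DAF.

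Across the 28 groups, 6 of the 7 genes reached their highest mean in the seed coat at 49 DAF, and Cel2 in the whole seed at 15 DAF. The libraries of the seed coat at 49 DAF lay above every library of the next group for pectin lyase, PL, PG2a and XTH5. They overlapped the next group for TBG4 (whole seed at 15 DAF) and for EXP1 (endosperm at breaker). Further down the order few neighbours could be separated: of the 27 pairs of neighbouring groups, the libraries of 26 overlapped for each of pectin lyase, PL, PG2a and EXP1, 25 for Cel2, 24 for XTH5 and 22 for TBG4. Pectin lyase was at the floor in every library of 20 of the 28 groups and PG2a in 25 of 28. PL and XTH5 were above the floor in at least 1 library of all 28 groups.

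In the young whole seed the 2 genes that changed were TBG4, which removes galactose from pectin, and Cel2, which cuts glucan chains, and both fell between 15 and 28 DAF. TBG4 stood at 204, 215 and 205 CPM at 15 DAF, at 201, 196 and 168 CPM at 21 DAF and at 80.8, 49.0 and 56.9 CPM at 28 DAF. The libraries at 28 DAF were the lowest, and those of 15 and 28 DAF did not overlap. Cel2 stood at 232, 226 and 208 CPM at 15 DAF, at 39.2, 39.5 and 41.7 CPM at 21 DAF and at 25.0, 20.2 and 23.5 CPM at 28 DAF, so that the 3 ages did not overlap.

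From 15 to 28 DAF TBG4 fell by 1.37 on the log2 scale (SE 0.38, adjusted p = 0.00294), a 3.34-fold drop in mean CPM, and Cel2 fell by 2.91 (SE 0.72, adjusted p = 0.000931), a 9.69-fold drop. These and all later adjusted p-values were given by the quasi-likelihood test of edgeR and adjusted by Benjamini-Hochberg over 24676 genes, and a gene is called changed where the log2 fold change is beyond 1 in either direction and the adjusted p under 0.05. Among all genes tested 11.4% were called lower from 15 to 28 DAF, against 2 of the 7. Most of the Cel2 drop lay in the first step, where it fell by 2.33 from 15 to 21 DAF (SE 0.71, adjusted p = 0.0147), and TBG4 fell by 1.37 in the next step (SE 0.38, adjusted p = 0.00822). The TBG4 call was lost without replicate 2 (log2 fold change -1.24).

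The other 5 genes were not called in whole seeds. XTH5, which cuts and rejoins xyloglucan, was at 111, 94.5 and 94.3 CPM at 15 DAF and at 97.7, 74.5 and 102 CPM at 28 DAF (log2 fold change 0.24, SE 0.46, adjusted p = 0.712). PL was between 0.588 and 2.602 CPM and EXP1 between 0.0535 and 0.898 CPM in the 9 whole seed libraries. Pectin lyase and PG2a were at the floor in all 9.

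In the seed coat 6 of the 7 genes rose between 35 and 49 DAF, the first and last ages at which it was sampled. The 7 genes had a median log2 fold change of 3.15, beside 0.07 over all genes tested, and 13.4% of all genes were called higher and 11.6% lower. The largest rises in fold terms were those of pectin lyase and PG2a, going from the floor to 39.2 ± 19.6 and 72.0 ± 33.7 CPM (SD, n = 3). With normalization to library totals the median of all genes in this comparison moved by 0.54 on the log2 scale, and the same 6 genes were called.

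Pectin lyase, so named by the study, had 0.0450, 0 and 0 CPM at 35 DAF. At 42 DAF it had 6.49, 0.554 and 0.0459 CPM, and at 49 DAF 17.8, 56.2 and 43.7 CPM. PG2a, the polygalacturonase of ripening fruit, had 0.0450, 0.0896 and 0 CPM at 35 DAF, 23.8, 3.74 and 0.0917 CPM at 42 DAF, and 37.2, 74.7 and 104 CPM at 49 DAF. For both genes the libraries of 49 DAF were the highest of the 9, and replicate 1 at 42 DAF stood closest to them. Pectin lyase was at least 292-fold higher at 49 than at 35 DAF (adjusted p = 5.25e-09) and PG2a at least 537-fold (adjusted p = 1.51e-10), counted against a floor of 3 counts per library at 35 DAF. Their fitted log2 fold changes of 10.46 and 9.99 depend on the small count added in the fit.

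PL, the pectate lyase, had 6.34, 6.90 and 9.02 CPM at 35 DAF, 31.7, 9.75 and 1.79 CPM at 42 DAF, and 43.4, 137 and 102 CPM at 49 DAF. TBG4 had 24.8, 29.5 and 32.2 CPM at 35 DAF, 49.3, 36.8 and 23.2 CPM at 42 DAF, and 172, 292 and 252 CPM at 49 DAF. In both genes the libraries of 49 DAF lay above all others of the seed coat, and those of 35 DAF were already well above the floor. PL rose 12.7-fold in mean CPM (log2 fold change 3.15, SE 0.75, adjusted p = 0.000438) and TBG4 8.29-fold (2.52, SE 0.40, adjusted p = 4.84e-07). The PL call was lost without replicate 2 (log2 fold change 2.70, adjusted p = 0.0609).

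XTH5 had 81.7, 80.2 and 116 CPM at 35 DAF, 205, 55.2 and 75.6 CPM at 42 DAF, and 210, 420 and 355 CPM at 49 DAF. The first and last age did not overlap, but replicate 1 at 42 DAF came close to the lowest library at 49 DAF. XTH5 rose 3.55-fold in mean CPM (log2 fold change 1.30, SE 0.46, adjusted p = 0.0197). Its call was lost under DESeq2 (1.217, adjusted p = 0.0613), without replicate 2 (0.97, adjusted p = 0.293), and without either of replicates 1 and 2 at 35 DAF or either of replicates 2 and 3 at 49 DAF (1.06 to 1.23).

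EXP1, an expansin of ripening fruit, had 0.135, 0.493 and 0.933 CPM at 35 DAF, 17.5, 3.05 and 0.825 CPM at 42 DAF, and 16.8, 34.2 and 26.8 CPM at 49 DAF. The first and last age did not overlap, and replicate 1 at 42 DAF lay above the lowest library of 49 DAF. EXP1 rose 49.9-fold from 35 to 49 DAF (log2 fold change 5.10, SE 1.15, adjusted p = 0.000212). Cel2 was the exception: its seed coat libraries ranged from 0.236 to 1.11 CPM over the 3 ages, and its log2 fold change of -0.97 (SE 0.94, adjusted p = 0.441) was not called.

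**Figure D2:**
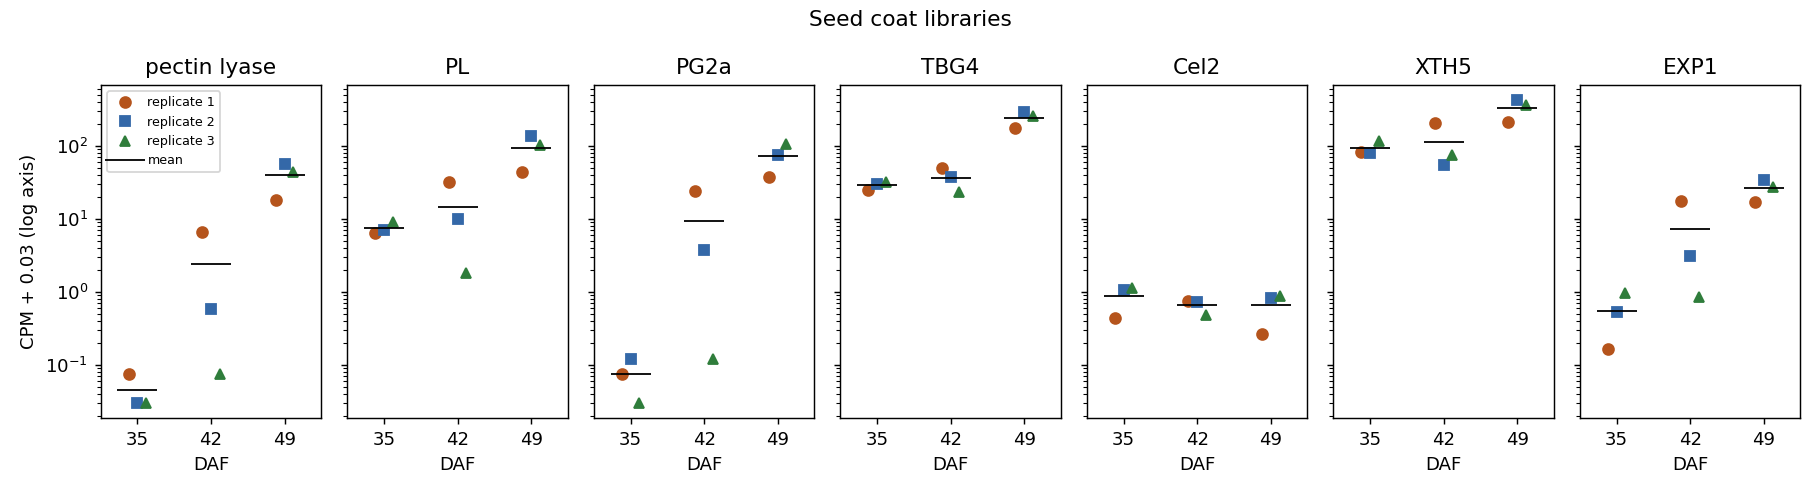
Level of the 7 genes in each of the 9 seed coat libraries (CPM on a log axis, with 0.03 CPM added) at 35, 42 and 49 DAF, with points marked by replicate and bars for the means. Replicate 1 is the highest library of all 7 genes at 42 DAF and the lowest of all 7 at 49 DAF.

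The rise was not even between libraries of 1 age. At 42 DAF replicate 1 was the highest library for 7 of 7 genes, and at 49 DAF replicate 1 was the lowest for 7 of 7. Placed on an axis from the mean of 35 DAF (0) to the mean of 49 DAF (1) over 23065 other genes, the seed coat libraries of 42 DAF stood at 0.809, 0.672 and 0.501 for replicates 1, 2 and 3, and those of 49 DAF at 0.968, 1.01 and 1.02. On that axis, too, replicate 1 was the farthest along at 42 DAF. The libraries of 49 DAF average 1 by construction. They lay about as close together as those of 35 DAF, at -0.0210 to 0.0187, so no order was read from them.

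Of the genes known from ripening fruit flesh, E8 moved with the same libraries. E8, an ethylene-responsive ripening gene, was at 42.7 to 62.4 CPM at 35 DAF, at 614, 206 and 120 CPM at 42 DAF and at 916, 2122 and 2114 CPM at 49 DAF, so that replicate 1 was again the highest at 42 DAF and the lowest at 49 DAF. The 8 ripening markers summed to 187 to 206 CPM at 35 DAF, to 1069, 385 and 292 CPM at 42 DAF and to 1186 to 2435 CPM at 49 DAF, and E8 made up most of the sum in all 3 libraries at 49 DAF. From 35 to 49 DAF 2 of these 8 rose (E8, with a log2 fold change of 4.51, and PSY1, with 3.04) and 2 fell (ACS2 and ACO1), and none was at 0 throughout the seed coat. RIN, a regulator of ripening, was at 2.12 to 9.87 CPM at 49 DAF. The maternal markers summed to 410.2 to 510.1 CPM at 35 DAF, to 656 to 944 CPM at 42 DAF and to 502 to 549 CPM at 49 DAF. The part of adhering or ripening fruit tissue in the rise was not tested.

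Genes were called higher in both intervals. From 35 to 42 DAF pectin lyase (log2 fold change 6.23, SE 1.40, adjusted p = 0.000445), PG2a (6.84, SE 1.05, adjusted p = 1.37e-06) and EXP1 (3.06, SE 1.09, adjusted p = 0.0252) were called higher, beside 8.41% of all genes. From 42 to 49 DAF pectin lyase (4.24), PL (2.89), PG2a (3.15), TBG4 (2.87) and XTH5 (1.71) were called higher, with adjusted p-values from 2.42e-07 for TBG4 to 0.00629 for XTH5, beside 5.84% of all genes. Without replicate 1 at 42 DAF PG2a alone was called from 35 to 42 DAF, whereas 6 genes were called from 42 to 49 DAF. The early PG2a call held under 11 of 11 alternatives. The early EXP1 call was lost under 7 of 12, among them those without replicate 1 or without replicate 2 at 35 DAF. From 42 to 49 DAF TBG4 alone was called without replicate 2, and again when only the libraries of these ages were fitted, where the adjusted p-values were 0.0835 for pectin lyase, 0.113 for PL, 0.170 for PG2a and 0.107 for XTH5. The PG2a call was also lost under DESeq2 (adjusted p = 0.137), and EXP1 from 35 to 42 DAF was not called with only those ages fitted (log2 fold change 2.96, adjusted p = 0.119), a fit in which pectin lyase and PG2a did not pass the filter on low counts.

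At 49 DAF the same 6 genes were higher in the seed coat than in the endosperm or the embryo of the same age. Beside the values of the seed coat given above, the 3 endosperm libraries at 49 DAF had 1.91, 5.75 and 8.17 CPM of PL, 2.05, 9.06 and 8.82 CPM of TBG4, 9.72, 27.8 and 30.9 CPM of XTH5, and 0.419, 1.12 and 2.09 CPM of EXP1. Pectin lyase had 0.0465, 1.03 and 0.464 CPM there, and PG2a was at the floor. No library of the endosperm reached the lowest of the seed coat for any of the 6 genes, but the share of all genes so separated was not worked out.

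Over the endosperm at 49 DAF the seed coat had 76.5 times the mean CPM of pectin lyase (log2 fold change 5.72, SE 0.92), 17.9 times that of PL (3.64, SE 0.77), at least 516 times that of PG2a, 36.0 times that of TBG4 (4.63, SE 0.44), 14.4 times that of XTH5 (3.32, SE 0.50) and 21.4 times that of EXP1 (3.89, SE 1.06). The highest of these 6 adjusted p-values was 0.00097, for EXP1, and 28.6% of all genes were called higher in the seed coat. Cel2 was not called (log2 fold change 3.61, SE 1.73, adjusted p = 0.0586), although it was with normalization to library totals and under DESeq2. As a share of the mean seed coat level, the endosperm held 1.31% for pectin lyase, 5.60% for PL, 2.78% for TBG4, 6.95% for XTH5 and 4.66% for EXP1. The same share was 1.39% for MBP3, 0.628% for TAGL1 and 0.469% for TAG1 among the maternal markers. The part of adhering seed coat in the endosperm values was not tested.

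Over the embryo at 49 DAF TBG4, at 0.0911, 0.230 and 0.137 CPM in the embryo, was higher in the seed coat (log2 fold change 9.76, SE 0.63, adjusted p = 6.56e-21). The ratio of its mean CPM, 1565, rests on embryo values near the floor and is not an exact fold. XTH5 was 96.1-fold higher (5.79, SE 0.58). PL was 40.1-fold and EXP1 32.1-fold higher, and pectin lyase and PG2a were at least 286-fold and at least 525-fold higher, since both were at the floor in the embryo. These 6 genes stood beside 30.8% of all genes called higher, and Cel2 was not called (log2 fold change 2.86, SE 1.63, adjusted p = 0.113), although both of these alternatives called it here too.

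At 35 DAF fewer genes set the seed coat apart. Over the endosperm 2 genes were higher, TBG4 (log2 fold change 2.82, SE 0.42) and XTH5 (4.33, SE 0.54), beside 22.2% of all genes. Over the embryo 3 were higher, PL (2.58, SE 0.79), TBG4 (4.68, SE 0.48) and XTH5 (7.97, SE 0.70), beside 24.6% of all genes, and XTH5 stood 283-fold above the embryo. PL was at 118% of the seed coat's mean level in the endosperm and EXP1 at 455%, both without a call.

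At 42 DAF all 7 genes were called higher in the seed coat than in the endosperm, beside 26.2% of all genes, and 6 of them than in the embryo, beside 27.1%. The replicate numbers of seed coat and endosperm paired at this age, and with the number as a block in a fit of those libraries alone 4 of the 7 were called over the endosperm: pectin lyase, PG2a and Cel2 did not pass the filter on low counts in those 6 libraries and were not tested. Without replicate 1 of the seed coat 5 of the 7 were called.

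**Figure D3:**
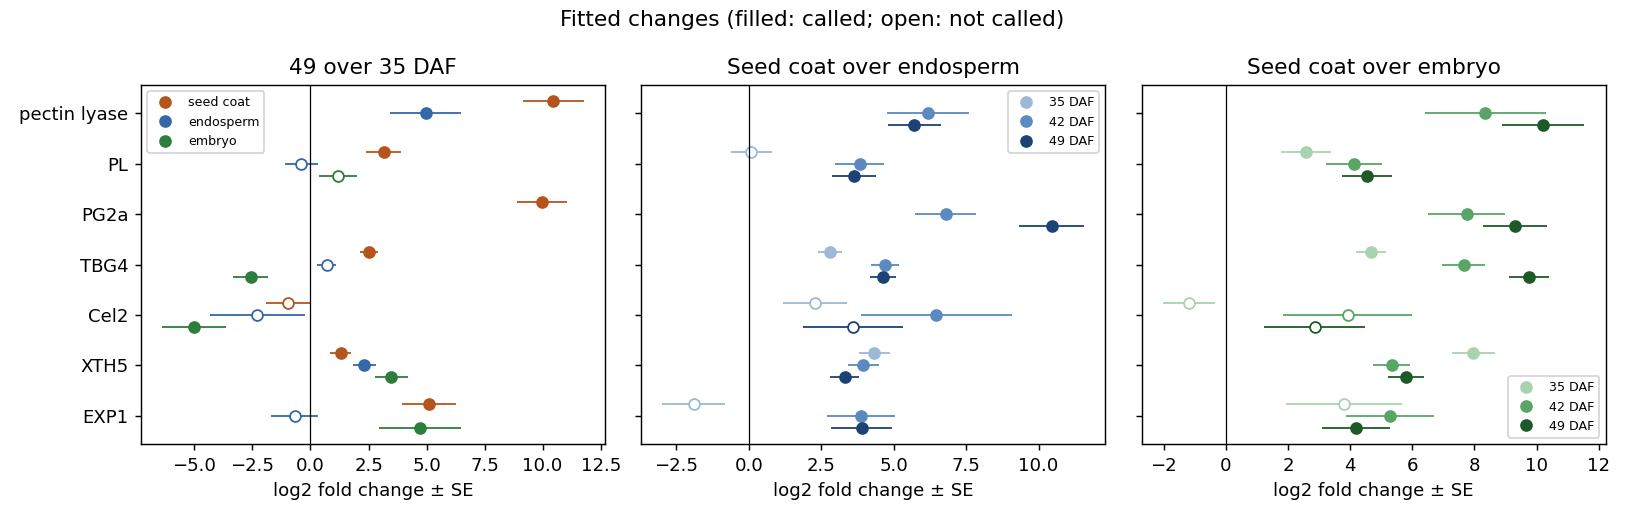
Log2 fold change with its standard error for each of the 7 genes, for 49 over 35 DAF in each tissue and for the seed coat over the endosperm and over the embryo at 35, 42 and 49 DAF, with filled points for called changes, open points for others, and none where both groups are at the floor. From 35 to 49 DAF in the seed coat 6 of the 7 points are filled and lie above 0, while Cel2 is open.

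In the embryo 2 genes rose and 2 fell between 35 and 49 DAF. TBG4 went from 0.484, 0.716 and 1.89 CPM to 0.0911, 0.230 and 0.137 CPM, and Cel2 from 0.968, 2.15 and 2.16 CPM to the floor. XTH5 went from 0.220, 0.447 and 0.314 CPM to 2.00, 3.63 and 4.62 CPM, and EXP1 from the floor to 0.410, 1.01 and 1.01 CPM. None of the 4 overlapped between the ages, for which no share of all genes was worked out. The highest level of any of the 7 genes in any embryo library was 6.99 CPM, for XTH5.

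In that interval TBG4 fell by 2.57 (SE 0.75, adjusted p = 0.00256) and was 6.74-fold lower, and Cel2 fell by 5.01 (SE 1.37, adjusted p = 0.00128) and was at least 12.8-fold lower. Over all genes 25.4% were called lower and 15.4% higher in the embryo. XTH5 was 10.4-fold higher (log2 fold change 3.48, SE 0.71, adjusted p = 2.59e-05) and EXP1 at least 6.05-fold (4.70, SE 1.77, adjusted p = 0.0182). The TBG4 call was lost without replicate 3, and the EXP1 call without replicate 2 or without replicate 3.

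In the endosperm PL and TBG4 dipped at 42 DAF. PL had 5.78, 9.05 and 11.5 CPM at 35 DAF, 0.931, 0.733 and 0.183 CPM at 42 DAF and, as given above, 1.91 to 8.17 CPM at 49 DAF. TBG4 had 3.90, 4.36 and 7.31 CPM at 35 DAF and 0.977, 0.687 and 0.915 CPM at 42 DAF. The libraries of 42 DAF lay below all those of 35 and 49 DAF for both genes.

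Across this dip PL fell by 3.48 (SE 0.85, adjusted p = 0.000535), 14.3-fold, and TBG4 fell by 2.24 (SE 0.49, adjusted p = 0.000123), 6.04-fold, beside 15.0% of all genes called lower. From 42 to 49 DAF 4 genes rose, PL (log2 fold change 3.08, SE 0.85), TBG4 (2.94, SE 0.49), XTH5 (2.34, SE 0.51) and pectin lyase (4.71, SE 1.58, adjusted p = 0.0149), beside 9.25% of all genes. Over the whole span from 35 to 49 DAF XTH5 rose 3.91-fold (2.31, SE 0.50, adjusted p = 6.25e-05) and pectin lyase at least 3.73-fold (4.97, SE 1.53, adjusted p = 0.00429), beside 19.6% of all genes. Both pectin lyase calls were lost when replicate 2 was left out of every group. Replicate 2 at 49 DAF held the highest of its 3 values there but was not left out alone. The pectin lyase call from 42 to 49 DAF was also lost without replicate 3, and the PL rise was lost without replicate 2 or without replicate 3.

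At 49 DAF no endosperm library was lower than replicate 1 for any of the 7 genes. For PG2a and Cel2, both at the floor there, replicate 1 was tied at 0 with another library. The ripening markers summed to 82.4, 174 and 252 CPM and the maternal markers to 2.28, 4.67 and 8.50 CPM in replicates 1, 2 and 3, so that replicate 1 was the lowest for these as well. From 42 to 49 DAF 2 of the 8 ripening markers, E8 (mean 14.9 to 101.0 CPM) and PSY1 (0.568 to 3.41 CPM), were called higher in the endosperm. Their part in the rise was not tested.

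The change from 35 to 49 DAF differed between tissues for 4 of the 7 genes, by the test of that difference. Against the endosperm, the log2 change in the seed coat was larger by 3.55 for PL (SE 1.02, adjusted p = 0.00308), by 1.82 for TBG4 (SE 0.56, adjusted p = 0.00599) and by 5.78 for EXP1 (SE 1.503, adjusted p = 0.00112), beside 19.2% of all genes with a larger change in the seed coat. Against the embryo it was larger by 5.09 for TBG4 (SE 0.82, adjusted p = 4.99e-07), beside 21.6% of all genes. For XTH5 the difference was -2.18 (SE 0.87, adjusted p = 0.0338), the embryo changing more, beside 13.3% of all genes in that direction.

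Between embryo and endosperm the change in TBG4 differed by -3.27 (SE 0.86, adjusted p = 0.00171) and that in EXP1 by 5.38 (SE 2.08, adjusted p = 0.0362), beside 13.9% of all genes with a lower and 10.1% with a higher change in the embryo. Pectin lyase was not called in any of the 3 differences, with standard errors from 4.21 to 5.23, and PG2a, and EXP1 between seed coat and embryo, gave no usable standard error. DESeq2 added PG2a against the endosperm, and pectin lyase, PG2a and Cel2 against the embryo, where library totals added PL and Cel2. The XTH5 difference was not called with normalization to library totals (-1.54, adjusted p = 0.149), nor without any 1 of the replicate numbers.

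Between embryo and endosperm 2 genes differed at every one of the 11 shared stages. TBG4 and XTH5 were called lower in the embryo at 11 of 11, whereas over all genes and stages 17.3% of tests were called lower and 14.0% higher in the embryo. Their libraries did not overlap at any stage, for which no share of all genes was worked out. TBG4 was 0.687 to 9.06 CPM in the endosperm and at most 1.89 CPM in the embryo, reached at 35 DAF. From mature green on its embryo means were 0.0805 to 0.255 CPM, near the floor, and 2 of its 11 embryo groups were at the floor. Its log2 fold changes ran from -5.27 (orange) to -1.86 (35 DAF). At orange, where the embryo was at the floor, the endosperm was at least 22.6-fold higher. The fitted value there depends on the small count added in the fit. XTH5 was 0.144 to 6.99 CPM in the embryo and 2.47 to 32.8 CPM in the endosperm, with log2 fold changes from -3.77 (breaker) to -1.39 (42 DAF). The XTH5 call at 42 DAF (adjusted p = 0.0379) was lost without each replicate number in turn (adjusted p up to 0.168) and with only those libraries fitted, and that at dark orange with only those libraries fitted.

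The other 5 genes differed at some stages. PL was lower in the embryo at 4 of 11 stages, and pectin lyase, Cel2 and EXP1 at 2 each. The EXP1 call at breaker (log2 fold change -2.41) held under 3 of 10 alternatives, where the value ranged from -3.67 to -0.43 with adjusted p-values up to 0.870, and it was lost under library totals, DESeq2 and no filter. The pectin lyase call at breaker held under 4 of 8. Cel2 was higher in the embryo at 35 DAF (log2 fold change 3.47, SE 1.03), with 0.968 to 2.16 CPM beside 0.136 to 0.278 CPM in the endosperm. PG2a was called at 0 of 11 stages, by edgeR and by DESeq2, with 0 at an unadjusted p under 0.05, and was at the floor in all 11 endosperm groups. With the replicate number as a block, at the stages where the numbers paired, TBG4 at 42 DAF was not called (log2 fold change -2.90, adjusted p = 0.0637) and Cel2 at mature green was (-1.74, adjusted p = 0.0268). Pectin lyase at 49 DAF and at breaker, the stages of both its calls, did not pass the filter on low counts in that fit and has no blocked value.

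**Figure D4:**
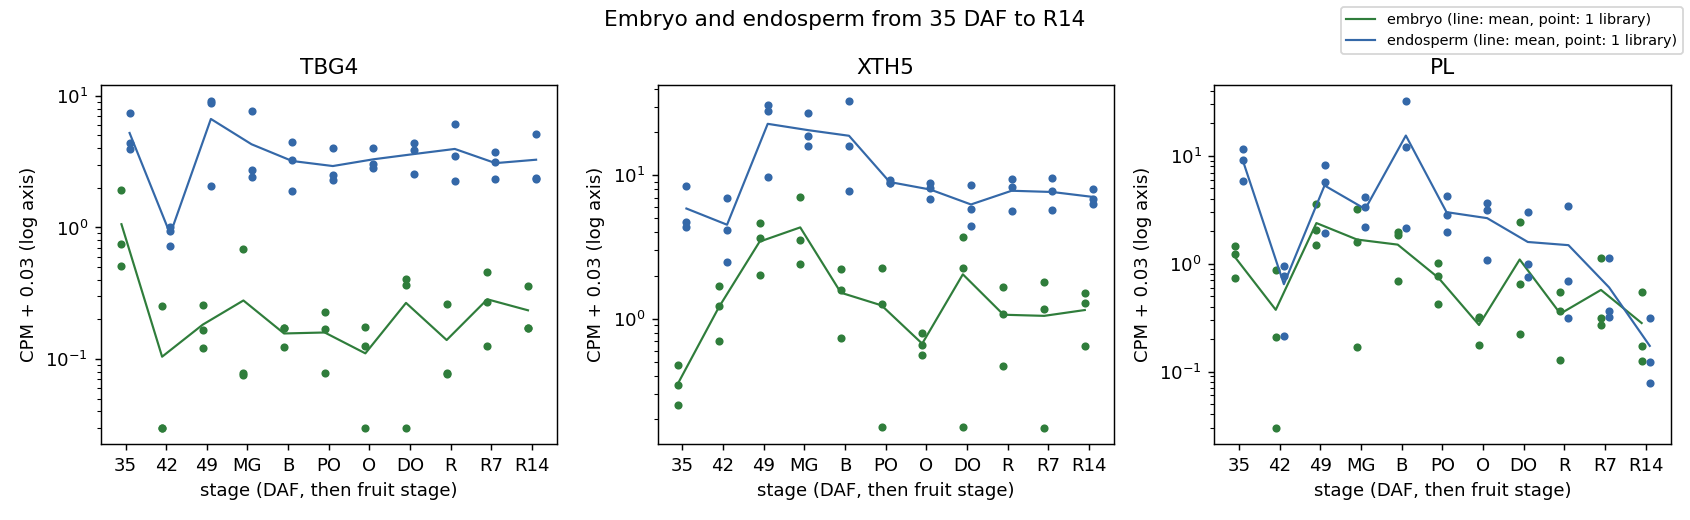
Level of TBG4, XTH5 and PL (CPM on a log axis, with 0.03 CPM added) in embryo and endosperm at the 11 shared stages, with a point for each library and a line through the means. The TBG4 and XTH5 points of the endosperm lie above those of the embryo at 11 of 11 stages, whereas the PL points are apart at only some stages.

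From mature green to the last sampled stage (R14) 2 of the 7 genes fell in the embryo and 3 in the endosperm. In the embryo XTH5 went from 3.53, 6.99 and 2.39 CPM to 1.27, 0.619 and 1.48 CPM and fell by 2.28 (SE 0.59, adjusted p = 0.0014), 3.84-fold. PL went from 0.138, 3.22 and 1.57 CPM to 0.516, 0.0953 and 0.143 CPM and fell by 2.99 (SE 1.00, adjusted p = 0.0129), although 1 library of mature green lay among those of R14. These 2 genes stood beside 7.57% of all genes called lower, and both calls were lost when replicate 2 was left out of every group. Replicate 2 at mature green, which was not left out alone, was the highest library there for 6 of the 7 genes. Its maternal markers summed to 3.87 CPM, beside 0.138 and 0.382 CPM in the other libraries of that stage and at most 0.286 CPM at R14. All 3 maternal markers tested and 3 of the 8 ripening markers were called lower over the same span. Their part in the fall was not tested.

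In the endosperm PL went from 2.15, 4.09 and 3.31 CPM at mature green to 0.286, 0.0483 and 0.0938 CPM at R14 and fell by 4.60 (SE 1.06, adjusted p = 0.00054), 22.3-fold. XTH5 went from 27.03, 18.8 and 16.0 CPM to 8.02, 6.76 and 6.33 CPM and fell by 1.73 (SE 0.49, adjusted p = 0.00507), 2.93-fold. Pectin lyase went from 0.561, 0.470 and 0.186 CPM to 0 in all 3 libraries and was at least 2.84-fold lower (adjusted p = 0.0133). None of the 3 overlapped between the stages, for which no share of all genes was worked out. These 3 genes stood beside 6.4% of all genes called lower, and all 3 calls were lost without replicate 2, while 2 held without replicate 1 or without replicate 3. Over the same span 2 of the 3 maternal markers tested and 2 of the 8 ripening markers were called lower and 1 ripening marker, PSY1, higher, and the maternal sum went from 5.57, 4.13 and 1.17 CPM to 0.334, 0.434 and 0.234 CPM. Their part in the fall was not tested. The test of a difference between the tissues in this change called 0 of the 7 genes in edgeR, with 1 at an unadjusted p under 0.05, and 1 in DESeq2.

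For single steps within this span the share of all genes called was not worked out over all steps, so the counts have no reference. In the embryo 0 of 49 tests were called, with 4 at an unadjusted p under 0.05 in edgeR and 1 called by DESeq2. In the endosperm 1 of 49 was called, with 7 at an unadjusted p under 0.05. The call was Cel2 in the endosperm from mature green to breaker, from 0.514, 0.799 and 0.699 CPM to 5.57, 34.5 and 1.10 CPM, a 20.5-fold rise in mean CPM (log2 fold change 4.24, SE 0.86, adjusted p = 0.000984), beside 0.146% of all genes called higher. The 3 libraries at breaker were far apart, and the call was lost without replicate 2 of that group. In the same 3 libraries PL had 12.04, 32.03 and 2.099 CPM, XTH5 16.0, 32.8 and 7.73 CPM, and EXP1 3.57, 18.7 and 0.620 CPM, replicate 2 being the highest each time. E8 had 104, 142 and 11.8 CPM and RIN 3.38, 4.79 and 0.239 CPM in them and MBP3 had 1.62, 1.71 and 0.191 CPM, so that replicate 3 was the lowest for these markers and for Cel2, PL, XTH5 and EXP1 alike. The part of fruit tissue in these values was not tested.

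The 7 genes did not share 1 pattern over the 28 group means. The correlation of log2(CPM + 1), given as a description over groups that share tissues and ages, was 0.967 between pectin lyase and PG2a, 0.946 between TBG4 and XTH5 and 0.878 between PL and EXP1, and it was -0.09 between pectin lyase and Cel2. Among the 23090 genes whose mean passed 1 CPM in some group, those most like pectin lyase were Solyc01g080970 (r = 0.988), Solyc02g078930 (0.985) and Solyc02g077070 (0.984). Those most like PG2a were Solyc11g011180 (0.999), Solyc06g036490 (0.998) and Solyc07g009473 (0.997). Those most like PL were Solyc02g062390 (0.8997), Solyc11g072470 (0.894) and Solyc02g077040 (0.888).

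The genes most like TBG4 were Solyc05g056400 (0.967), Solyc04g078700 (0.966) and Solyc03g025840 (0.965), and those most like XTH5 were Solyc04g080960 (0.963), Solyc08g061490 (0.961) and Solyc10g085890 (0.953). Cel2 was most like Solyc03g007200 (0.907), Solyc02g067380 (0.906) and Solyc03g120790 (0.905). For EXP1 the nearest gene was PL itself, followed by Solyc08g080090 (0.844) and Solyc01g107850 (0.842). The count table gives these loci no descriptions.

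Of 8 further wall genes, 5 were abundant enough to test. Pectin methylesterases remove methyl groups from pectin. Of the 3 tested, Solyc07g064180 fell in the seed coat from 35 to 49 DAF (by 2.95, SE 0.48, adjusted p = 7.88e-06), PE1 (Solyc07g064170) rose from 0 in all 3 libraries to 2.24, 1.38 and 4.41 CPM (log2 fold change 8.70, SE 1.52, adjusted p = 8e-06), and PMEU1 (Solyc03g123630) was not called, with means of 5.94 and 6.03 CPM. Of the 3 polygalacturonases TAPG1, TAPG2 and TAPG4, TAPG4 alone could be tested and was not called in that comparison. In all, 2 of these 5 genes rose in the seed coat and 1 fell, beside 13.4% of all genes called higher and 11.6% lower.

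The second riser was the endoglucanase Cel1 (Solyc08g081620), with 21.6, 4.75 and 0.355 CPM at 35 DAF, 363, 1284 and 895 CPM at 42 DAF and 648, 1322 and 1781 CPM at 49 DAF. Its rise from 35 to 49 DAF was 140.3-fold (log2 fold change 6.61, SE 0.95, adjusted p = 7.43e-08). At 42 DAF replicate 1 was its lowest library, where that replicate was the highest of all 7 genes above. In the whole seed, by contrast, Cel1 was at 0.263 CPM on average at 15 DAF and at the floor at 21 and 28 DAF, the ages over which Cel2 went from 222 to 22.9 CPM.

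In the embryo, PMEU1 went from 5.85, 19.6 and 18.4 CPM at 35 DAF to the floor at 49 DAF (fell by 7.66 on the log2 scale, SE 1.76, adjusted p = 0.000154), beside 25.4% of all genes called lower. It also fell in the endosperm, from a mean of 6.24 CPM to the floor (by 5.88, SE 1.73, adjusted p = 0.0026). In the endosperm from 35 to 49 DAF Cel1 rose from 0.184, 0.0455 and 0.185 CPM to 4.89, 9.02 and 15.8 CPM (log2 fold change 6.44, SE 1.27, adjusted p = 1.71e-05), which was 0.791% of its seed coat level, beside 19.6% of all genes called higher. Cel1 also rose in the embryo, from 0 to a mean of 1.16 CPM (8.31, SE 2.98, adjusted p = 0.0139), beside 15.4% of all genes called higher. From mature green to R14 PMEU1 was called higher in the embryo, its mean going from 0.233 to 9.46 CPM (4.88, SE 1.47, adjusted p = 0.00582), with overlapping libraries. The share of all genes called higher there was not worked out. Over that span Cel1 was called lower in the embryo, from 3.62 CPM to 0, beside 7.57% of all genes. It was lower too in the endosperm, from 8.23 to 0.176 CPM (fell by 5.70, SE 1.24, adjusted p = 0.000309), beside 6.4%.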

How the data were processed

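The authors mapped single-end reads of 50 bases with Salmon 0.14.1 to the tomato gene models ITAG 4.0 and deposited estimated counts per gene, not normalized, in 1 table. Of these values 10.5% are not whole, and they were rounded before testing. CPM was computed from library totals of 16908779 to 22734330. Fold changes came from edgeR 4.0.16 in R 4.3.3: genes were filtered with filterByExpr (24676 of 33976 kept), scaled by TMM and fitted over all 28 groups, so CPM ratios and fitted log2 values can differ. Calls needed an absolute log2 fold change over 1 and an adjusted p under 0.05. Alternatives were library totals, DESeq2 1.42.0, no filter, a replicate block, only the groups compared, and each replicate number left out of every group. Leaving out single libraries at 42 DAF and breaker, and the fit of only the groups compared with a block, were chosen after seeing the data. The fit was tested on simulated data with the same spread for all genes and with changes planted only in well counted genes. That simulation cannot show how the fit performs for genes near the floor or with a wide spread. The study used DESeq2 1.22.2.

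The members and lists were chosen with earlier results of these data known. Text names the 7 genes, the 3 genes most like each by Pearson correlation, and wall genes from the list of 8 loci. Same-numbered libraries deviated together, with every correlation over 0.1, in 11 of 17 pairs of tissues at 1 stage and in 0 of 6 pairs of first and last stages. The numbers are those of the sample titles. At pale orange the count table numbers its embryo and endosperm columns differently, so the title numbers cannot show whether those libraries pair. The reference used here gave no gene descriptions or sequences for these loci. Counting was by gene, so reads shared with near-identical family members are assigned by estimate.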

Additional observations from a re-analysis of the deposited data

Results flagged for a closer look

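In 7 cases the change from 35 to 49 DAF differed between tissues by the test of the difference itself (edgeR's quasi-likelihood fit, adjusted by Benjamini-Hochberg). Between seed coat and endosperm the log2 changes differed by 3.55 for PL, 1.82 for TBG4 and 5.78 for EXP1, the seed coat changing more upward. Between seed coat and embryo they differed by 5.09 for TBG4 and by -2.18 for XTH5, and between embryo and endosperm by -3.27 for TBG4 and 5.38 for EXP1. Groups of 3 libraries were too small to test for single outlying libraries.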

How the results depend on the processing

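Of the 134 counts of called genes recomputed under the alternatives, 122 stayed within 1.5 times the value reported. No called fold change turned its direction, and 700 of 766 recomputed gene values kept their call. The difference between tissues in the change from 35 to 49 DAF (7 calls) gave 11 under DESeq2, and that from MG to R14 (0 calls) gave 1. With only the groups compared, the calls fell from 2 to 1 in the embryo from MG to R14 and from 5 to 1 in the seed coat from 42 to 49 DAF. They also went from 2 to 1 in the endosperm from 35 to 49 DAF, where pectin lyase was not tested in that fit. Leaving out each replicate number in turn gave 1 to 2 calls in whole seeds from 15 to 28 DAF (2 with all libraries), 2 to 4 in the embryo (4) and 1 to 2 in the endosperm (2) from 35 to 49 DAF, 0 to 2 in the embryo (2) and 0 to 2 in the endosperm (3) from MG to R14, 9 to 22 over consecutive stages (21) and 3 to 7 for the differences between tissues from 35 to 49 DAF (7). The lowest of each came without replicate 2, or without replicate 3 for the embryo from 35 to 49 DAF. With a replicate block, EXP1 in the seed coat from 35 to 42 DAF was not called (log2 fold change 2.67, adjusted p = 0.0525). Genes at the floor limit what depth can show: pectin lyase had no counts in 45 and PG2a in 48 of the 84 libraries. Cel2 at 15 DAF was the 1 highest mean that moved by more than the spread of its libraries when CPM was scaled by TMM (137 CPM). The causes were not tested.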
